A study of Homo sapiens with 6 samples.

Results

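The genes described here include the 5 subunits of the transcription factor NF-kB (NFKB1, NFKB2, REL, RELA and RELB). The other 5 encode its inhibitors or proteins related to them (NFKBIA, NFKBIB, NFKBIE, NFKBIZ and TNFAIP3). Subunits and others were taken by gene symbol from a table of 23710 genes, and all 10 were present and passed the filter on low counts. They were chosen with earlier results of these data known. RNA was sequenced from THP-1, a human monocytic leukaemia cell line, in 6 libraries. In 3 of them the cells had been kept for 6 h with 10 uM mebendazole, a benzimidazole against worms that binds tubulin, and in the other 3 with the vehicle DMSO. The libraries form 3 pairs of 1 treated and 1 control sample, and the labels do not say whether a pair was a separate culture, so the tests rest on the spread of these samples, which may be technical. There was a single cell line, dose and time.

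NF-kB acts as a dimer of its subunits. RELA, RELB and REL carry domains that activate transcription, whereas NFKB1 and NFKB2 are made as the long precursors p105 and p100, which are processed to p50 and p52 and, before that, hold other subunits back. In resting cells the IkB proteins, among them the products of NFKBIA, NFKBIB and NFKBIE, keep the dimers inactive until the IKK kinases mark them for degradation. NFKBIZ encodes a nuclear IkB-like protein that works on chromatin, and TNFAIP3 encodes A20, which edits ubiquitin chains on signalling proteins upstream of IKK. NFKBIA and TNFAIP3 are textbook NF-kB targets, which makes them feedback inhibitors, and in monocytes the pathway drives cytokine and chemokine genes. Only RNA was measured here, so precursor processing, IkB degradation and nuclear entry were not observed.

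Each library held between 13420558 and 15727667 counts. Within a group the lowest Spearman correlation was 0.997, and counts of replicates differed by 1.45 to 3.30 times the sampling variance (chi-square per degree of freedom), so none was a library deposited again. Of 8 monocytic markers, 7 were at 10 CPM (reads per library size after TMM scaling) or more in every DMSO library, the exception being MPO at 2.75 CPM, and their summed level was 1362 to 1428 CPM with DMSO and 1296 to 1334 CPM with mebendazole. Behind that sum, the mean level of SPI1, a myeloid transcription factor, was higher with mebendazole (323 to 638 CPM) and the other 7 means were lower, such as CD33 (89.2 to 26.3 CPM), LYZ (388 to 239.9 CPM), CSF1R (453 to 339 CPM) and CD14 (19.6 to 9.38 CPM). Their part in the results below was not tested. Markers of T cells summed to at most 0.329 CPM in any library, those of B cells to 1.56, of epithelium to 2.05, of stroma to 1.92 and of erythroid cells to 0.157. Of the 3 endothelial markers, which summed to 89.0 to 101 CPM with DMSO and 124 to 146 CPM with mebendazole, PECAM1 gave nearly all reads and CDH5 had 1 read over all 6 libraries. DMSO replicate 1 stood apart in RMRP (105 reads) and RPPH1 (126 reads), RNAs without a poly(A) tail that had 1 to 5 reads in the other libraries. It also held the highest of the 3 DMSO values for 7 of the 10 NF-kB genes, but every one of its values lay below the treated range, and results without its pair are given with the alternatives.

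The upstream sequences of these genes are shown first, because several are known NF-kB targets. RefSeq promoter sequences (GRCh38.p14) were used for 8 of the 10 genes (all but RELB and NFKBIE), at 14 annotated start sites. The 250 bases before each start were searched on both strands for the kB consensus, the 10-base motif bound by NF-kB dimers, with overlapping matches on the strands counted as 1 site. At least 1 start had a match in 7 of these 8 genes and in 9 of the 14 windows, against 9.96% of all 35116 windows and 15.8% of the 9902 tested genes with a window. RELA was the gene without a match at either of its starts. The 8 genes had 1.75 windows per gene against 1.47 for tested genes, and the GC content of their windows (250 bases before to 50 after the start) was 51.3% to 79.0%, against a median of 58.7% over all windows. A match is a description of the letters, and no binding was measured.

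One stretch of 30 bases per gene, and 2 for NFKB2, shows the matches in capitals, 5′ to 3′ on the strand of the gene. Their positions below are in GRCh38.p14, and no coordinate comes from the counts table, whose build is hg19.
NFKB1, chr4:102501300-102501329, plus strand: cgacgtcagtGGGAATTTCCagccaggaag
REL, chr2:60881518-60881547, plus strand: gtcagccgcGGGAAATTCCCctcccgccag
NFKBIB, chr19:38899932-38899961, plus strand: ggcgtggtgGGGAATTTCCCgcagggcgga
NFKBIZ, chr3:101827757-101827786, plus strand: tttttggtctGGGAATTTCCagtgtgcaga
TNFAIP3, chr6:137867188-137867217, plus strand: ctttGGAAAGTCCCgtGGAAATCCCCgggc
NFKB2, start 2, chr10:102394462-102394491, plus strand: aaacgtcatGGGAATTCCCCcctccggggg
NFKB2, start 3, chr10:102395674-102395703, plus strand: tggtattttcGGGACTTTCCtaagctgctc
For NFKBIA, the gene of the main IkB protein, the whole stretch of 250 bases before the start is given (chr14:35404750-35404999, minus strand).
NFKBIA: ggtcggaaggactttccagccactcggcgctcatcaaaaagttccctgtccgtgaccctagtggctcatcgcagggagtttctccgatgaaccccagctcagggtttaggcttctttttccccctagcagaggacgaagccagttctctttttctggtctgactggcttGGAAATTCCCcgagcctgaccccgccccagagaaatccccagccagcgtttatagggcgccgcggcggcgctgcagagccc

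The match of NFKBIA lay 81 to 72 bases before its start. Those of NFKB1 (49 to 40 bases), REL (47 to 37), NFKBIB (28 to 18) and TNFAIP3 (a pair of sites, 67 to 58 and 55 to 46) were nearer to the start, and those of NFKBIZ at its 2 starts were farther (223 to 214 and 239 to 230). NFKB2 had 2 sites before each of its starts 2 and 3, counted along the gene. The same 10 bases, GGGAATTTCC on one strand or the other, stood before NFKB1, REL, NFKBIA, NFKBIB and NFKBIZ. This 10-mer was picked after the matches had been seen. It was found in 0.142% of all windows of that length and in 23 of the 9902 tested genes, these 5 included.

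**Figure D1:**
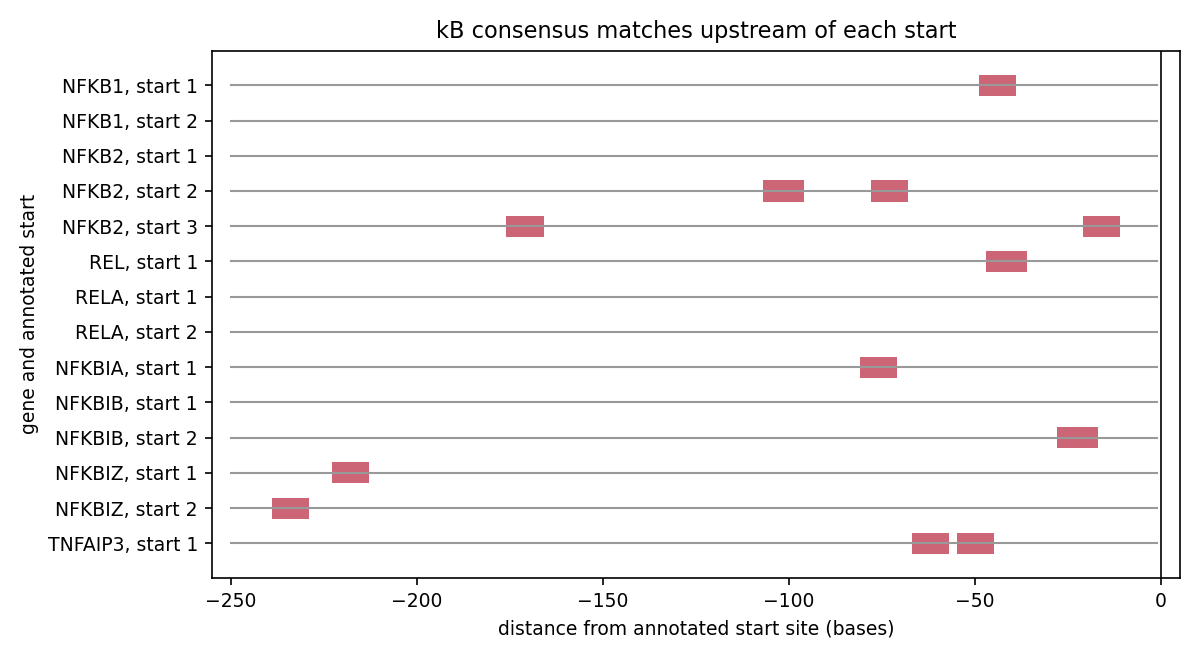
Positions of kB consensus matches (bars) in the 250 bases before each annotated start of the 8 genes with a RefSeq promoter, with the distance from the start site in bases on the x axis and 1 line per gene and start. Matches fall in 9 of the 14 windows, and both RELA windows are empty.

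Mebendazole was compared with DMSO across all genes with edgeR's quasi-likelihood test, with the sample pair as a term of the model. All 10 genes were called higher with mebendazole at a Benjamini-Hochberg adjusted p under 0.05, none was called lower, and in all 10 the groups did not overlap. Over all 13591 genes tested, 82.3% were called, 40.6% higher and 41.7% lower, and groups did not overlap in 82.4%, with the treated group higher in 40.5%. The size was larger than that of most genes: the median log2 fold change of the 10 was 2.45, a 5.48-fold rise, against a median of -0.03 over all tested genes. The rise was at least 4-fold in 7 of the 10, against 6.79% of tested genes, at least 2-fold in 9, against 15.5%, and at least 8-fold in 2, against 3.41%. The summed level of the 10 went from 567 to 603 CPM in the DMSO libraries to 3049 to 3099 CPM in the treated ones. For a single gene, an exact two-sided permutation test over the 6 libraries gave p = 0.1 for each of the 10, the smallest p that 3 against 3 allows. That test split the libraries without regard to the sample pairs. In these bulk libraries, more cells with a transcript and more RNA per cell cannot be told apart.

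**Figure D2:**
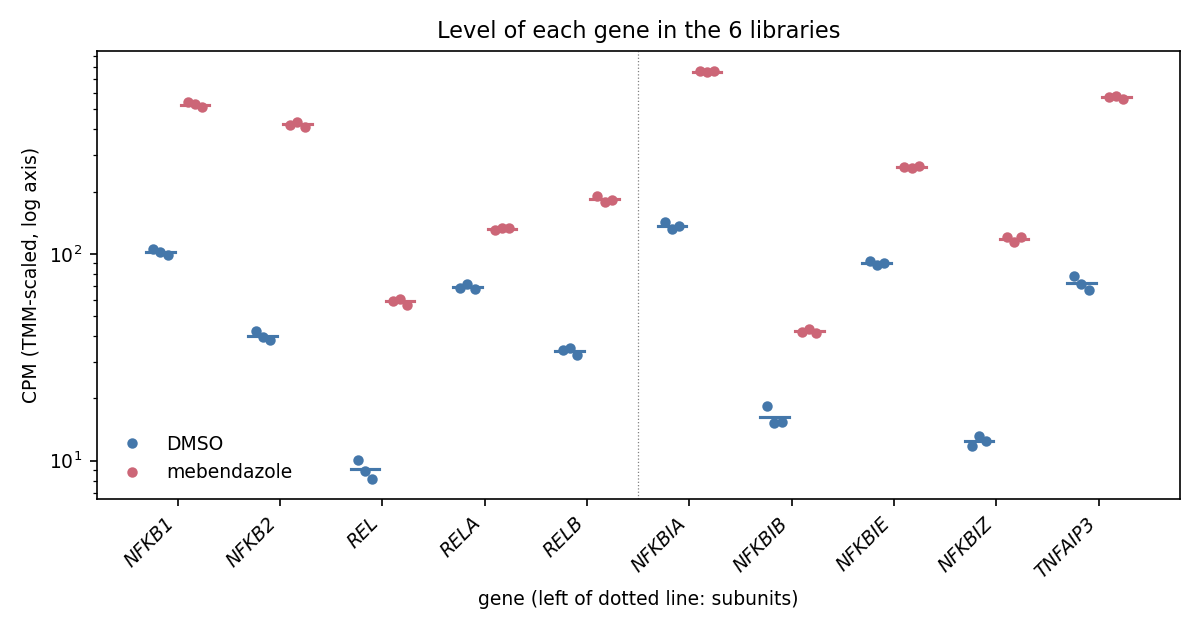
Level of each gene in CPM (TMM-scaled, log axis) in the 3 DMSO and the 3 mebendazole libraries, with points for libraries and bars for group means. Subunits are left of the dotted line and the other genes right of it. The treated libraries lie above the DMSO libraries for all 10 genes, and the gap is narrowest for RELA, from 69.1 to 132 CPM.

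Among the precursor subunits, NFKB2, which encodes p100 and p52 of the non-canonical pathway, was at 42.4, 39.4 and 38.4 CPM in the 3 DMSO libraries and at 421, 434 and 412 CPM with mebendazole. Its mean went from 40.1 ± 2.09 to 422 ± 11 CPM (SD, n = 3 per group), a log2 fold change of 3.40 (SE 0.04, adjusted p = 7.1e-63, edgeR), the largest of the 10. NFKB1, which encodes p105 and p50, was at 105, 102 and 98.2 CPM with DMSO and at 540.3, 527 and 512 CPM with mebendazole. The 3 pairs of NFKB1 differed by 2.37, 2.37 and 2.38 on the log2 scale, and its fitted log2 fold change was 2.37 (SE 0.04, adjusted p = 7.8e-58, edgeR). Both precursor genes rose far beyond the spread of their replicates, and NFKB2 rose by more than NFKB1 in each pair.

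Of the subunits that activate transcription, REL rose the most and RELA the least. REL, the c-Rel subunit, had the fewest DMSO reads of the 10, with 154, 132 and 139 reads or 10.1, 8.95 and 8.17 CPM with DMSO and 59.4, 60.5 and 56.8 CPM with mebendazole. Its log2 fold change was 2.70 (SE 0.07, adjusted p = 5.3e-43, edgeR). RELB, the partner of p52, was at 34.4, 34.9 and 32.3 CPM with DMSO and at 191, 178 and 182 CPM with mebendazole, a log2 fold change of 2.44 (SE 0.05, adjusted p = 1.7e-51, edgeR). RELA, which encodes p65 of the classical p50 and p65 dimer, was at 68.4, 71.2 and 67.8 CPM with DMSO and at 129.7, 133 and 133 CPM with mebendazole. The log2 fold change of RELA was 0.93 (SE 0.04, adjusted p = 1.1e-29, edgeR), a 1.91-fold rise, and its groups were apart like those of the other genes. Measured on log2, 83.1% of all tested genes had a smaller fold change than RELA, against 94.9% for RELB and 97.3% for NFKB2.

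Of the IkB genes that hold dimers in the cytoplasm, NFKBIA rose the most. NFKBIA, which encodes IkB alpha, was at 142, 132 and 137 CPM with DMSO and at 761, 753 and 764 CPM with mebendazole, a log2 fold change of 2.47 (SE 0.03, adjusted p = 9.0e-60, edgeR). NFKBIE, which encodes IkB epsilon, was at 91.9, 88.6 and 90.3 CPM with DMSO and at 263, 261 and 266 CPM with mebendazole (log2 fold change 1.54, SE 0.04, adjusted p = 3.7e-45, edgeR). NFKBIB, which encodes IkB beta, was at 18.4, 15.2 and 15.3 CPM with DMSO and 42.0, 43.2 and 41.4 CPM with mebendazole (1.37, SE 0.07, adjusted p = 1.4e-27, edgeR). DMSO replicate 1 was the highest DMSO library for NFKBIB, and pair 1 gave its smallest difference, 1.19 on the log2 scale against 1.51 and 1.43 in the other pairs. NFKBIB overlaps SIRT2 on the opposite strand by 163 bases in GENCODE 29, and the library kit does not mark strand, so reads of that stretch cannot be told apart.

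NFKBIZ and TNFAIP3, of the nuclear IkB-like and the ubiquitin-editing protein, rose by more than the cytoplasmic IkB genes. NFKBIZ was at 11.8, 13.1 and 12.5 CPM with DMSO and at 121, 114 and 120 CPM with mebendazole. The log2 fold change of NFKBIZ was 3.25 (SE 0.06, adjusted p = 2.1e-52, edgeR), a 9.49-fold rise. TNFAIP3, which encodes A20, was at 78.5, 71.8 and 66.8 CPM with DMSO and at 571, 577 and 562 CPM with mebendazole. Its log2 fold change was 2.98 (SE 0.04, adjusted p = 1.6e-61, edgeR), a 7.89-fold rise, and 96.5% of tested genes had a smaller value. An antisense gene overlaps TNFAIP3 by 1046 bases and another gene overlaps REL on its own strand by 5702 bases. These overlaps, like that of NFKBIB, are between whole gene spans, and exons were not compared. Reads of any shared exon bases cannot be told apart, and the annotation used for counting was not stated.

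The order of the rises was stable across pairs except among near neighbours. NFKB2 and NFKBIZ were not separated, since NFKBIZ was higher by 0.05 in pair 1 and NFKB2 by 0.34 and 0.16 in the others. NFKBIA, RELB and NFKB1 overlapped in the same way, with log2 differences within pairs from 2.35 to 2.51. TNFAIP3 lay below NFKBIZ and above REL in all 3 pairs. Below NFKB1 came a step of 0.81 to 0.85 in each pair to NFKBIE, and NFKBIE, NFKBIB and RELA followed in that order in all 3 pairs, with RELA below NFKBIB by 0.27 to 0.61. The SD over the 3 pairs ranged from 0.0083 for NFKB1 to 0.17 for NFKBIB. These gaps are a description of 3 pairs and carry no test.

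**Figure D3:**
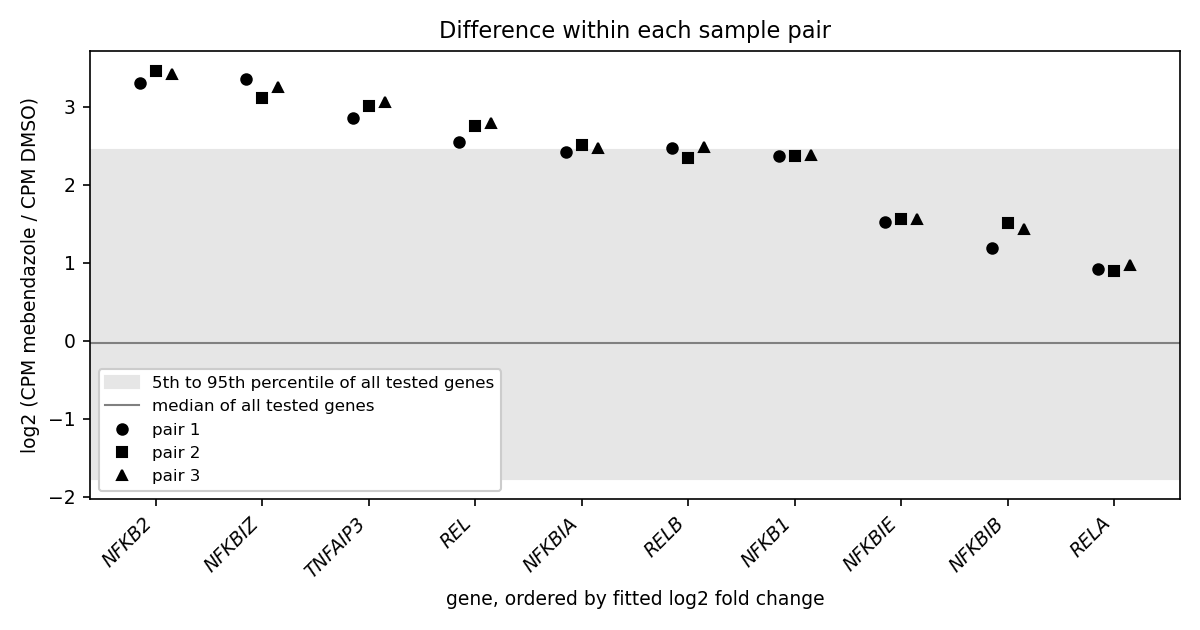
Log2 ratio of mebendazole to DMSO CPM within each of the 3 sample pairs, with genes ordered by the fitted log2 fold change and the grey band spanning the 5th to 95th percentile of all tested genes (-1.77 to 2.45). NFKB2, NFKBIZ, TNFAIP3 and REL lie above the band in all 3 pairs, and NFKBIE, NFKBIB and RELA lie inside it and below the other genes.

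Levels of different genes were compared as CPM per kilobase of merged coding-transcript exons (GENCODE 29). With DMSO, NFKBIA was the most abundant of the 10 at 72.1 ± 2.50 CPM per kb, followed by NFKBIE (35.0 ± 0.647), RELA (20.4 ± 0.535) and NFKB1 (18.4 ± 0.597). TNFAIP3 (15.3 ± 1.23) and RELB (14.7 ± 0.598) did not differ beyond their spread, and NFKB2 (10.9 ± 0.566), NFKBIB (7.66 ± 0.852), NFKBIZ (2.98 ± 0.150) and REL (0.807 ± 0.0873) followed. With mebendazole NFKBIA was again first, at 399.7 ± 3.13 CPM per kb, but TNFAIP3 was the second (120.3 ± 1.58) and NFKB2 the third (115 ± 3.00), and RELA was the seventh at 38.9 ± 0.55. Between TNFAIP3 and RELA stood NFKB2, NFKBIE (102 ± 0.870), NFKB1 (95.3 ± 2.59) and RELB (79.9 ± 3.04), and below RELA came NFKBIZ (28.3 ± 0.938), NFKBIB (19.8 ± 0.427) and REL (5.24 ± 0.169). This order depends on the length used: with the longest transcript in place of merged exons, NFKB1 was the third with DMSO (24.9 CPM per kb, RELA 21.7) and the second with mebendazole (129 CPM per kb, NFKB2 124 and TNFAIP3 120.4), while NFKBIA stayed first. The length of REL, 11.3 kb, is the longest of the 10, and its level per kb depends on how much of that length the cells use and the authors counted.

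The unequal rises changed the make-up of the subunit transcripts. RELA made up 30.4%, 31.7% and 31.8% of the summed CPM per kb of the 5 subunits in the DMSO libraries and 11.3%, 11.7% and 12.0% in the treated ones. NFKB2 went the other way, from 16.7% ± 0.579 to 34.3% ± 0.747 (n = 3 per group). The share of NFKB1 was 28.2% ± 0.270 and 28.5% ± 0.316, that of RELB 22.6% ± 0.318 and 23.9% ± 0.776, and that of REL 1.23% ± 0.104 and 1.57% ± 0.0332. These opposite moves of RELA and NFKB2 were also present without length scaling and with the longest transcript as the length, but which subunit had the largest share was not stable, since NFKB1 led in both groups under both of those choices. Among the cytoplasmic IkB genes, NFKBIA went from 62.8% ± 0.203 to 76.6% ± 0.0894, NFKBIE from 30.5% ± 0.483 to 19.6% ± 0.0503 and NFKBIB from 6.66% ± 0.525 to 3.80% ± 0.108. The ratio of these 3 inhibitors to the 5 subunits, both summed as CPM per kb, was 1.79, 1.68 and 1.81 with DMSO. With mebendazole it was 1.54, 1.54 and 1.60, and every treated value lay below every DMSO value. The 5 subunits include NFKB1 and NFKB2, whose precursors also hold other subunits back. The ratio thus does not set all inhibitors against active subunits. Shares are relative, so a lower share of RELA stands beside a higher level of RELA, and as sums over the chosen genes they carry no test.

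**Figure D4:**
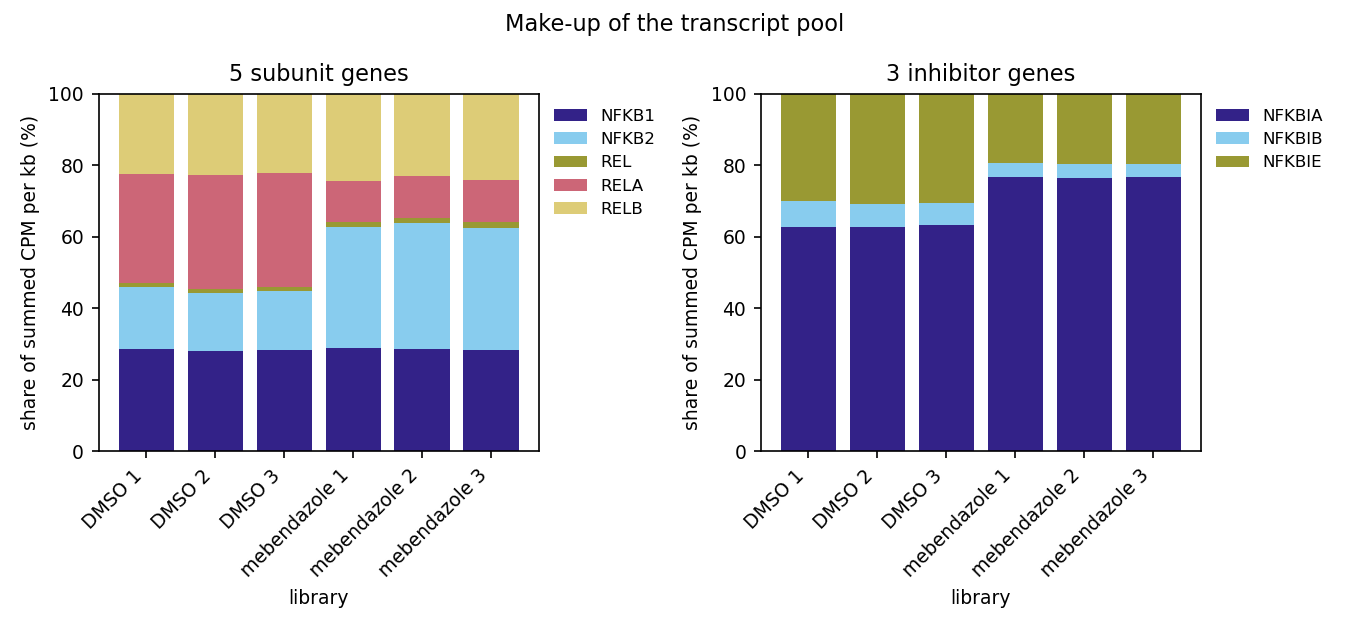
Share of each gene, in percent, in the summed CPM per kb of the 5 subunit genes (left) and of NFKBIA, NFKBIB and NFKBIE (right), with 1 stacked bar per library. The RELA segment shrinks from 30.4% or more with DMSO to 12.0% or less with mebendazole while the NFKB2 segment grows, and libraries of a group look alike.

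The rest of the pathway was read from lists by role, chosen with earlier results of these data known. The counts in each list stand beside 40.6% called higher and 41.7% called lower over all tested genes, with a median log2 fold change of -0.03. Of 4 other genes of IkB-like and IkB-binding proteins, 3 rose and 0 fell. BCL3, a nuclear IkB-like partner of p50 and p52 dimers, was at 17.9 ± 2.27 CPM with DMSO and at 301 ± 6.73 CPM with mebendazole, a rise of 4.07 on the log2 scale (SE 0.05, adjusted p = 2.3e-62, edgeR). NFKBID, another nuclear IkB-like gene, rose by 2.95 (SE 0.06). The value of NKIRAS1, whose product binds IkB beta, was 0.28 and did not pass the test (adjusted p = 0.0703, edgeR).

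Genes of the IKK complex, of upstream or related kinases and of adaptor proteins such as TAB1 moved less. Of these 13 genes, 10 rose, 2 fell and the median log2 fold change was 0.74. MAP3K14, which encodes NIK, the kinase that starts p100 processing, was at 9.40, 10.8 and 11.7 CPM with DMSO and at 65.9, 70.0 and 67.3 CPM with mebendazole (log2 fold change 2.67, SE 0.07, adjusted p = 4.9e-44, edgeR). The genes of the IKK subunits themselves rose by less than MAP3K14 or were not called. In a test against a 1.5-fold change, IKBKG was called (adjusted p = 0.0134, edgeR) and CHUK was not (adjusted p = 0.284, edgeR). The 75th percentile of the log2 fold change over all tested genes was 0.58. CHUK (IKK alpha) rose by 0.62 (SE 0.07) and IKBKG (NEMO) by 0.74 (SE 0.08), whereas IKBKB (IKK beta), at 153 ± 2.53 and 156 ± 5.67 CPM, was not called (0.03, adjusted p = 0.539, edgeR). With library totals in place of TMM scaling, IKBKB was called lower (-0.22, adjusted p = 1.2e-06, edgeR). TAB1 (-1.18) and IKBKE (-1.11), the 2 genes of the list that fell, are named because they are so few.

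Among ubiquitin ligases of NF-kB activation and IkB degradation, 8 of 16 genes were called higher and 4 lower (median log2 fold change 0.10). Over all tested genes, 40.6% were called higher and 41.7% lower, so these counts alone do not set the list apart. BIRC3, which encodes cIAP2, rose from 6.81 ± 0.559 to 167 ± 5.33 CPM (4.61, SE 0.06, adjusted p = 9.8e-60, edgeR), and FBXW11, a beta-TrCP subunit that recognises phosphorylated IkB, rose by 1.15. RBCK1 (-0.23) and CUL1 (-0.13), of the linear ubiquitin ligase and the cullin ligase, fell by little. The number of genes called lower in this list was 8 with library totals, 1 with DESeq2 and 2 without pair 3, and CUL1 lost its call without pair 2 (adjusted p = 0.0527) and without pair 3 (adjusted p = 0.0573, edgeR).

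Of 16 further negative regulators, 13 rose and 3 fell (median log2 fold change 0.94). Among the 13, TNIP3, at a mean of 0.188 CPM with DMSO, passed the filter on low counts only through its mebendazole libraries. ZC3H12A, which encodes the RNase regnase-1, rose from 14.1 ± 0.518 to 100.5 ± 3.49 CPM (2.83, SE 0.06), and TANK, which binds TRAF proteins, from 49.2 ± 3.15 to 193 ± 8.14 CPM (1.97, SE 0.05). PDLIM2, a nuclear ubiquitin ligase for p65, fell from 56.7 ± 1.89 to 13.2 ± 1.34 CPM (-2.10, SE 0.07, adjusted p = 3.9e-38, edgeR). IRAK3, the inhibitory IRAK kinase, fell from 152 ± 5.28 to 76.2 ± 2.51 CPM (SE 0.04 on the log2 scale). So the brakes did not all move with NFKBIA and TNFAIP3.

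Receptors and adaptors were mixed: 8 of 15 were called higher and 4 lower (median log2 fold change 0.42). The shares over all tested genes were 40.6% and 41.7%, so these counts alone do not set the list apart either. IRAK2, a kinase downstream of Toll-like and interleukin 1 receptors, rose from 6.78 ± 0.577 to 224 ± 12.9 CPM, and IL1R1, the interleukin 1 receptor, from 6.92 ± 0.578 to 76.3 ± 3.77 CPM. The bacterial sensors TLR2 (-1.26, SE 0.05) and TLR4 (-1.06, SE 0.06) fell, from 113 ± 1.71 to 46.9 ± 1.94 CPM and from 52.3 ± 1.42 to 25.1 ± 0.506 CPM.

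Among the lists, textbook NF-kB target genes other than the 10 had the largest median log2 fold change, 3.18. Earlier results were known when the list was chosen, so its counts and median are a description and not a test. Of 33 tested, 31 were called higher and 1 lower, and 29 rose at least 2-fold. Over all tested genes, 40.6% were called higher and 41.7% lower, and 15.5% were called higher and rose at least 2-fold. IL1A, CXCL10 and CXCL3, at means of 0.184, 0.409 and 0.487 CPM with DMSO, passed the filter on low counts only through their mebendazole libraries. A rise was the only change these genes could show, so their calls carry no weight. The chemokine genes CCL20 (7.88, SE 0.08) and IL8, now named CXCL8 (7.01, SE 0.05), had the largest rises. CCL20 went from 1.11 to 263 CPM, with only 16, 17 and 19 reads in the DMSO libraries, and IL8 from 11.7 to 1504 CPM. TNF was the 1 gene called lower. Its levels were 156, 156 and 123 CPM with DMSO and 115, 114 and 124 CPM with mebendazole, so the groups overlapped, and the call (-0.29, adjusted p = 1.5e-07, edgeR) was not made by DESeq2 (-0.27, adjusted p = 0.113). No read of IL6 was found in the 6 libraries, and VCAM1 and IL12B had too few to be tested. Several targets stand in other lists as well (BIRC3, BCL3, TNIP1 and ZC3H12A), so the lists are not independent.

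**Figure D5:**
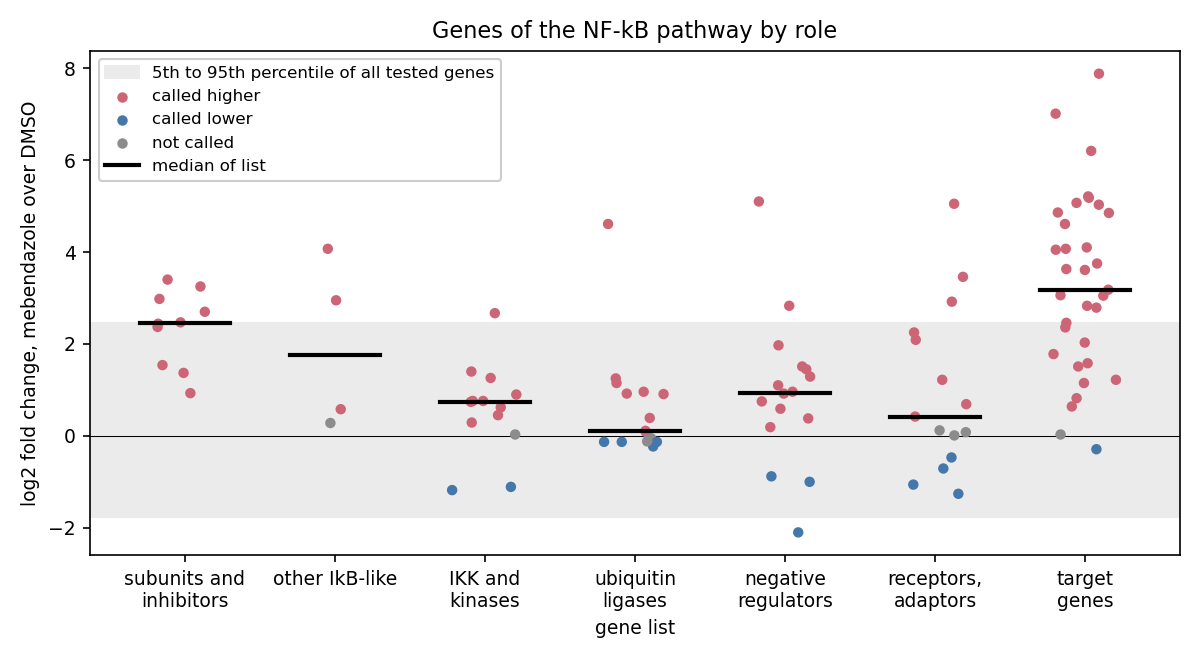
Log2 fold change of each tested gene (points, coloured by call) in the 10 NF-kB genes and 6 other lists of the pathway, with the list median as a black bar and the grey band from the 5th to the 95th percentile of all tested genes. The medians of the 10 genes (2.45) and of the target genes (3.18) lie above those of the IKK list (0.74) and ubiquitin ligases (0.10). All lists were chosen with earlier results of these data known.

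Genes with a profile like that of NFKBIA were sought among the 9501 other tested genes with a mean of 10 CPM or more, by the Euclidean distance between log2 CPM centred on each gene's mean over the 6 libraries. Near it were PTGS1, which encodes cyclooxygenase 1 (distance 0.05, from 75.2 ± 2.62 to 408 ± 3.10 CPM), and NRP1, a receptor for semaphorins and VEGF (0.08, from 26.8 ± 1.5 to 149 ± 0.9 CPM). With only 2 conditions, such likeness is mostly a like fold change.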

How the data were processed

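The authors deposited raw counts for 23710 gene symbols, unpooled, and 0 columns of the table lacked a sample. Per the submitters' processing notes, the tools were STAR, bedtools, HTSeq and DESeq2 and the build hg19, with no version or role stated. The annotation and strand setting were not stated there. Per the labels' protocols the library kit was TruSeq RNA v2, which does not mark strand.

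Counts were filtered with filterByExpr (13591 of 23710 genes, 99.9% of reads), scaled by TMM and tested in edgeR 4.0.16 (R 4.3.3) with glmQLFit and glmQLFTest, two-sided, with pair and group as terms and Benjamini-Hochberg adjustment over all tested genes. CPM are TMM-scaled and show no change in the total RNA of a cell. The SE divides the size of the log2 fold change by the root of F. It rests mostly on spread pooled over genes (2 residual degrees of freedom against a prior of 61), so very small p-values do too. The test was also run on simulated counts with few changed genes, the same dispersion for every gene and no pair effect. That setting is unlike these data, so the run does not check scaling or error rates here. DESeq2 1.42.0 served as an alternative. Symbols of listed genes not in the table were matched through RefSeq synonyms (CXCL8 as IL8, OTULIN as FAM105B).

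The members and lists were chosen with earlier results of these data known. Besides the 10 members and the 4 IKK genes CHUK, IKBKB, IKBKG and MAP3K14, the text names in each other list the 2 genes that rose most and the 2 that fell most, if called and at a mean of 10 CPM or more, and the 3 genes nearest to NFKBIA, of which 1 is not reported here. Others are named after their values were seen. Depth of 13420558 to 15727667 counts sets the precision of low genes.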

Additional observations from a re-analysis of the deposited data

How the results depend on the processing

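All 10 NF-kB genes kept their direction and their call in each of 10 alternatives, and log2 fold changes ranged over them from 0.69 to 0.96 for RELA and from 3.15 to 3.44 for NFKB2. The lowest values came with library totals, which shifted the median gene by -0.24 and left 36.4% of called genes higher against 49.3% with TMM. Without 1 pair, RELA lay between 0.91 and 0.96, NFKBIB between 1.32 and 1.47 and TNFAIP3 between 2.93 and 3.04, and 5231 to 5453 genes were called higher and 5341 to 5463 lower. In the ubiquitin ligase list, 2 to 3 genes were called lower without 1 pair. With no replicate block, 5480 genes were higher and 5638 lower, and all 10 genes were called. Deviations of same-numbered samples correlated at 0.00, 0.06 and 0.02, and only pair 2 correlated best with its own number. A test against a 1.5-fold change, which asks for more, called 2896 genes higher and 2878 lower, all 10 NF-kB genes included, and 0 genes lower among ubiquitin ligases and 0 among targets. Called lower among ubiquitin ligases were 8 with library totals and 1 with DESeq2, and among targets 2 and 0; the cause was not tested. IKBKB reversed with library totals (-0.22) and among genes with a mean of 10 CPM or more (-0.01). Of 34 named genes, 29 kept sign and call throughout.

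Without length scaling, which by construction gives longer genes more weight, the shares with DMSO and mebendazole were 40.1% and 39.8% for NFKB1, 15.8% and 31.9% for NFKB2, 3.57% and 4.45% for REL, 27.2% and 9.97% for RELA, 13.3% and 13.9% for RELB, 56.2% and 71.3% for NFKBIA, 37.1% and 24.7% for NFKBIE, and 3.96% with mebendazole for NFKBIB, and the ratio of inhibitors to subunits was 0.960 and 0.805. With the longest transcript as the length, a choice made after seeing the data, they were 33.7% and 34.0% for NFKB1, 15.9% and 32.6% for NFKB2, 1.09% and 1.38% for REL, 29.4% and 10.9% for RELA, 20% and 21.1% for RELB, 66.9% and 79.7% for NFKBIA, 26.6% and 16.7% for NFKBIE, and 3.58% with mebendazole for NFKBIB, and the ratio with mebendazole was 1.61. NFKB1 led the subunits in both groups under both choices.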

Other observations

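Genes outside the 10 were also sorted by the kB consensus in the 250 bases before a RefSeq start, a property taken from the sequence alone. Of 1562 such tested genes with a match, 46.5% were called higher and 38.3% lower with mebendazole, and 20.4% rose at least 2-fold. Of 8332 without a match, 40.3% were called higher and 42.6% lower, and 14.2% rose at least 2-fold. Among the 126 genes with 2 or more sites in 1 window, 59.5% were called higher and 27.0% lower. These shares are a description with no test.

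The 10-mer GGGAATTTCC shared by NFKB1, REL, NFKBIA, NFKBIB and NFKBIZ, chosen after the matches were seen, stood before 18 further tested genes, of which 14 were called higher and 3 lower, with a median log2 fold change of 1.33. Over all tested genes, 40.6% were called higher and 41.7% lower, with a median of -0.03. The 18 included TNFRSF9, which encodes the costimulatory receptor 4-1BB, from 1.15 to 83.4 CPM. They also included the chemokine genes CXCL1, CXCL2, CXCL3 and CXCL6, whose log2 fold changes ran from 3.63 to 5.21 and whose reads may be split between similar genes. Their DMSO means were low, from 0.487 CPM for CXCL3 to 3.66 CPM for CXCL1. CXCL3, CXCL6 (0.57 CPM with DMSO) and WNT10A (0.389 CPM) could not have passed the filter on low counts without their mebendazole libraries. Their calls as higher therefore carry no weight in the count of 14. COL7A1, a collagen gene, went from 11.6 to 130.4 CPM. OPTN, which encodes the ubiquitin-binding protein optineurin, had a log2 fold change of 1.16, and RC3H2, an RNA-binding regulator of mRNA decay, 1.10. The 3 that fell were OAS3 (-0.58), TFB1M (-1.15) and NDRG2 (-2.29). Several of these are themselves known NF-kB targets, so the group is not independent of the lists above.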
